A study of Mus musculus with 7 samples.

Results

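Igfbpl1, C2cd4b, Slc5a8, Spon2, Scube3, Sctr and Tbx10 are 7 genes of the 21965 in the count table of contused mouse spinal cord. They were chosen by their measured log2 fold change, as the largest rises in the libraries labelled Bmal1-/- over the WT libraries, leaving out clock genes and the part of chromosome 7 around Arntl, the gene that encodes BMAL1. Their difference between the genotypes is therefore the basis of the choice, and the values of that difference are given below as a description with no test. Related and neighbouring genes and the sexes were compared with a test. A related or neighbouring gene with as large a rise would mostly have been chosen as a member. These genes are therefore set beside all genes tested.

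RNASeq libraries came from single mice, of which 3 were labelled Bmal1-/- (1 male, 2 females) and 4 WT (2 males, 2 females). All 7 mice received a moderate T9 contusion of 50 kdyn, and RNA was taken at dpi 3 from a 5 mm piece of cord centred on the injury epicenter. Per the labels and methods, the knockout mice carried the germ-line allele Arntltm1Bra on a C57BL/6J background and were bred from heterozygous parents, so the allele is present in every cell type. The WT C57BL/6J mice were bought in, except for 1 that was a littermate of the knockouts, so genotype and breeding origin cannot be told apart. Age was matched between the genotypes, per the study's methods. There was no uninjured group, so levels at rest were not measured.

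BMAL1 is a transcription factor of the circadian clock. Paired with CLOCK or NPAS2 it binds E-box sequences and activates the Period, Cryptochrome and REV-ERB genes, among others. The Period and Cryptochrome proteins inhibit that pair, and the REV-ERB proteins repress genes that carry ROR elements, so loss of BMAL1 can both lower and raise transcripts. In the spinal cord the study saw BMAL1 protein in neurons, astrocytes, oligodendrocytes and occasional endothelial cells. It detected none in microglia or macrophages. The counts measure the amount of RNA, not transcription or repression.

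The 7 genes fall into roles at the cell surface, outside the cell and in the nucleus. Igfbpl1, Spon2 and Scube3 encode secreted proteins. Igfbpl1 is a relative of the insulin-like growth factor binding proteins, Spon2 (mindin) is a matrix protein with a thrombospondin repeat that binds integrins and microbial products, and Scube3 is a glycoprotein with EGF-like and CUB domains. Slc5a8 is a sodium-coupled transporter of lactate, short-chain fatty acids and other monocarboxylates, and Sctr is the receptor for the hormone secretin, a class B G-protein-coupled receptor. Tbx10 is a transcription factor of the T-box family, and C2cd4b encodes a C2 domain protein described in inflammation and metabolism.

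The 7 genes lay on 7 different chromosomes of GRCm38. Igfbpl1 (ENSMUSG00000035551) spanned chr4:45809468-45826923 on the minus strand, Spon2 (ENSMUSG00000037379) chr5:33198184-33218455 on the minus strand and Scube3 (ENSMUSG00000038677) chr17:28142141-28174854 on the plus strand. Slc5a8 (ENSMUSG00000020062) spanned chr10:88885992-88929515 and Sctr (ENSMUSG00000026387) chr1:120006894-120063536, both on the plus strand. Tbx10 (ENSMUSG00000037477) spanned chr19:3992752-3999512 and C2cd4b (ENSMUSG00000091956) chr9:67759437-67760930, both on the plus strand. All 7 are annotated as protein coding, with 2 exons at most in a transcript of C2cd4b and up to 23 in one of Scube3. C2cd4b shared 627 exon bases with the long noncoding gene M5C1000I18Rik on the opposite strand, and Scube3 shared 198 with AC126937.2. Neither noncoding gene was in the count table, and the strand setting of the counting was not given in the sources used here, so reads of these pairs cannot be told apart with certainty.

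The sequence before the start of these genes, which were chosen for being high in the same libraries, was examined. RefSeq windows were at hand for C2cd4b, Slc5a8, Scube3 and Tbx10, and not for Igfbpl1, Spon2 or Sctr. The 250 bases before the start of C2cd4b, Slc5a8 and Tbx10 are shown (RefSeq, GRCm38.p6, plus strand, 5′ to 3′), the genes for which the RefSeq start is also the annotated start used above. The capitals mark CpG dinucleotides, the sites of DNA methylation, which were counted in each window.
C2cd4b, chr9:67759187-67759436: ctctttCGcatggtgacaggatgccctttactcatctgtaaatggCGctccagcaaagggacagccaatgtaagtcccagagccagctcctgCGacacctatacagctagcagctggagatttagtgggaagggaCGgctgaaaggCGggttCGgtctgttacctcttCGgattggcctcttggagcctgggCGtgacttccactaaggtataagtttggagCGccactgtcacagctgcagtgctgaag
Slc5a8, chr10:88885742-88885991: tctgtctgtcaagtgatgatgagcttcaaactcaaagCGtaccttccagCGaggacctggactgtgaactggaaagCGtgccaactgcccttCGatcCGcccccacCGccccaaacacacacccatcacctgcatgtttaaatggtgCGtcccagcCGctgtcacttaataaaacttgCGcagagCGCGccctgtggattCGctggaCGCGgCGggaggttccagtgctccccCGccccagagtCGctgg
Tbx10, chr19:3992502-3992751: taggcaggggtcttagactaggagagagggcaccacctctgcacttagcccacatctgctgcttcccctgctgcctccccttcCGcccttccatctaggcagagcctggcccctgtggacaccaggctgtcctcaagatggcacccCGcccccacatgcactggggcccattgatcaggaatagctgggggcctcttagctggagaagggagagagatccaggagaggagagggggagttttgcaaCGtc

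The windows differed in CpG number. The window of Slc5a8 held 17 CpG, that of Scube3 13, that of C2cd4b 9 and that of Tbx10 3, beside a median of 6 over 32851 windows of the same length. The Scube3 window, chr17:28142059-28142308, lay before a RefSeq start but reached past the annotated gene start at 28142141. The GC content of the windows of Slc5a8, Scube3, C2cd4b and Tbx10 was 58.8%, 59.6%, 54.4% and 61.2%, beside a median of 52.4%. Of 4 clock motifs searched on both strands, none was found in any of the 4 windows. The E-box (CACGTG) was in 6.02% of all windows, the E′-box (CACGTT) in 3.85%, the ROR element core (TAGGTCA or TGGGTCA) in 5.38% and the D-box (TTATGTAA or TTACGTAA) in 0.931%. Letters outside these windows were not searched.

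The libraries held 38529644 to 44096737 counts, and 15743 genes had enough counts to be tested. Arntl itself went against the label, with 22.5 to 24.2 CPM (the count of a gene scaled to the total of its library, here with TMM factors) in the 3 libraries labelled Bmal1-/- and 11.9 to 15.3 CPM in WT (log2 fold change 0.77, SE 0.10, adjusted p = 0.0155 by the quasi-likelihood test of edgeR, with p-values adjusted by Benjamini and Hochberg's method). That count covers the whole gene and not only the deleted part, so the samples are called the libraries labelled Bmal1-/-. Of 21 clock genes 5, Arntl among them, were higher and 6 lower by edgeR's test. The REV-ERB genes Nr1d1 and Nr1d2 were at −2.51 (SE 0.15) and −2.68 (SE 0.16) on the log2 scale. Per3 was at −2.21 (SE 0.16), Dbp at −1.85 (SE 0.16) and Cry1 at 1.58 (SE 0.09). Counts of Ddx3y, a Y-linked gene, were 1736 to 2372 in the 3 males and 0 to 22 in the 4 females. WT replicate 3 stood apart from the other libraries on the first 2 principal components, which held 48.6% and 26.3% of the variance. Leave-one-out values are given below for part of the results.

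The genotypes also differed in transcripts that mark other cells. As background, 20.9% of all genes tested lay at an unadjusted p under 0.05 in edgeR's test. Of all genes tested, 0.654% were called higher and 0.915% lower. The share of all genes whose libraries did not overlap between the genotypes was not computed. Skeletal muscle markers summed to 7.09 to 8.49 CPM in the libraries labelled Bmal1-/- and to 53.5 to 67.6 CPM in WT, with 6 of 8 lower by edgeR's test. Neuron markers summed to 3345 to 4303 against 1285 to 3307 CPM, and astrocyte markers to 16915 to 19382 against 11357 to 16101 CPM, with 0 of 8 and 0 of 10 passing (at an unadjusted p under 0.05, 2 and 4). The astrocyte sum was mostly Gfap (11642 against 8702 CPM), and single astrocyte markers went both ways, 6 of 10 above 0, with Slc1a2 at 0.53 and Aldoc at 0.56 but Aldh1l1 at −0.47 and Slc1a3 at −0.44, the 4 at an unadjusted p under 0.05. Ependymal markers, 53.3 to 59.8 against 49.8 to 56.0 CPM, and choroid plexus markers, 4.30 to 4.72 against 2.82 to 5.66 CPM with Otx2 at 0, overlapped between the genotypes, as did those of fibroblasts, oligodendrocytes and their precursors, microglia, macrophages and neutrophils, with 0 passing in each of these lists in edgeR (at an unadjusted p under 0.05, 2 ependymal, 3 fibroblast, 1 oligodendrocyte and 1 macrophage marker, and 0 in the rest). The fibroblast sum overlapped only through replicate 2 labelled Bmal1-/-, at 2238 CPM. Replicates 1 and 3 held 384.7 and 305.8 CPM, and WT 1127 to 1854 CPM. Above 0 lay 0 of 8 fibroblast (median −0.99), 0 of 5 neutrophil (−0.63) and 0 of 6 microglia markers (−0.11). Of macrophage, oligodendrocyte and precursor markers 2 of 7, 3 of 6 and 4 of 6 lay above 0. Progenitor markers (178 to 260.5 against 299.1 to 486.7 CPM, 0 of 7 passing, 2 unadjusted), red cell markers (24.9 to 57.2 against 133.4 to 412.9 CPM, 0 of 5 passing, 5 unadjusted), Schwann cell markers (6.07 to 13.04 against 25.2 to 241.6 CPM, 1 of 4 lower) and endothelial markers (437.6 to 494.2 against 512 to 787.9 CPM, 1 of 8 lower) did not overlap. The progenitor sum was mostly Nes (172.4 against 315.0 CPM), while 4 of the 7 lay above 0 with a list median of 0.30, and the 2 at an unadjusted p under 0.05 went opposite ways (Nes −0.87, Neurod1 0.71). WT replicate 3 gave the lowest WT sum of neuron and astrocyte markers and the highest of progenitor, red cell and endothelial markers. Without it the list medians went from 0.64 to 0.42 (neuron), 0.17 to 0.01 (astrocyte) and −0.52 to −0.28 (endothelial). Those of neutrophil and macrophage markers went from −0.63 to −0.19 and from −0.24 to −0.05. Fibroblast, Schwann cell and muscle medians grew in size (−1.05, −2.53 and −3.49). Fewer cells of a type and less RNA per cell cannot be told apart in bulk tissue, and the part of these differences in the values of the 7 genes was not tested.

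Igfbpl1, the largest rise in the table, was among the rarer transcripts of WT cord and an abundant one in the libraries labelled Bmal1-/-. Its level was 89.7, 94.3 and 46.8 CPM in replicates 1, 2 and 3 labelled Bmal1-/- (77 ± 26.2 CPM, SD, n = 3) and at 1.22, 0.951, 1.55 and 0.908 CPM in WT (1.16 ± 0.295, n = 4). The male replicate 3 was the low library of the 3, at 60.9% of their mean, and still lay 30.3 times above the highest WT library. The log2 fold change was 6.05 (SE 0.32). The raw counts behind it were 3529, 4062 and 1845 against 36 to 62.

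Spon2 was the second of the secreted members in size of the rise. It reached 48.6, 68.1 and 44.6 CPM in the libraries labelled Bmal1-/- (53.8 ± 12.6, n = 3) and 2.58, 2.85, 1.75 and 2.07 CPM in WT (2.31 ± 0.497, n = 4). The 2 sets of libraries were separated by 15.6 times between the lowest of the former and the highest of the latter. The log2 fold change was 4.54 (SE 0.22). Here replicate 2 was high and replicates 1 and 3 were close together.

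Scube3 was the member with the highest level in WT cord and the one with the least spread among the libraries labelled Bmal1-/-. The 3 libraries labelled Bmal1-/- held 47.6, 46.5 and 41.1 CPM (45 ± 3.48, n = 3), a coefficient of variation of 7.72%, and the WT libraries 7.04, 7.76, 5.92 and 8.47 CPM (7.3 ± 1.09, n = 4). The ranges lay 4.85 times apart. The log2 fold change was 2.62 (SE 0.13).

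Slc5a8, the monocarboxylate transporter, was rare in WT cord, with 12 to 19 counts per library. Mice labelled Bmal1-/- had 9.0, 9.54 and 7.79 CPM (8.78 ± 0.895, n = 3), compared with 0.332, 0.308, 0.349 and 0.479 CPM in WT (0.367 ± 0.0765, n = 4). The libraries of each genotype lay close together, and the log2 fold change was 4.57 (SE 0.18). The ratio of summed counts was 23.9, with an exact 95% interval of 18.4 to 31.8 that covers counting error only.

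Sctr, the secretin receptor, showed the smallest rise of the 7. Replicates 1, 2 and 3 labelled Bmal1-/- gave 5.97, 5.80 and 4.11 CPM (5.3 ± 1.03, n = 3), and the 4 WT replicates 0.893, 1.16, 0.949 and 0.857 CPM (0.964 ± 0.134, n = 4). The lowest library of the former was 3.55 times above the highest WT library. The log2 fold change was 2.45 (SE 0.19).

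Tbx10 had the fewest counts of the 7 in both genotypes, and its values varied most. Raw counts of 113, 181 and 67 were found in the replicates labelled Bmal1-/-, compared with 3, 3, 7 and 6 in WT. These correspond to 2.87, 4.20 and 1.70 CPM (2.92 ± 1.25, n = 3) and to 0.0765, 0.0771, 0.175 and 0.151 CPM (0.12 ± 0.0507, n = 4), with a coefficient of variation of 42.8% and 42.3%. Within each genotype the males and females did not overlap, with the male low among the libraries labelled Bmal1-/- and both males high among WT. The log2 fold change was 4.57 (SE 0.42), and the ratio of summed counts 24.6 had a counting interval of 15.5 to 41.4.

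C2cd4b was the second largest rise. Its levels were 12.5, 9.59 and 7.44 CPM with the Bmal1-/- label (9.85 ± 2.56, n = 3) and 0.230, 0.283, 0.325 and 0.202 CPM in WT (0.26 ± 0.0548, n = 4). Only 8 to 13 reads were counted per WT library, against 293 to 493. The log2 fold change was 5.23 (SE 0.25), and the ratio of summed counts, 37.9, had a counting interval of 27.8 to 53.1.

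**Figure D1:**
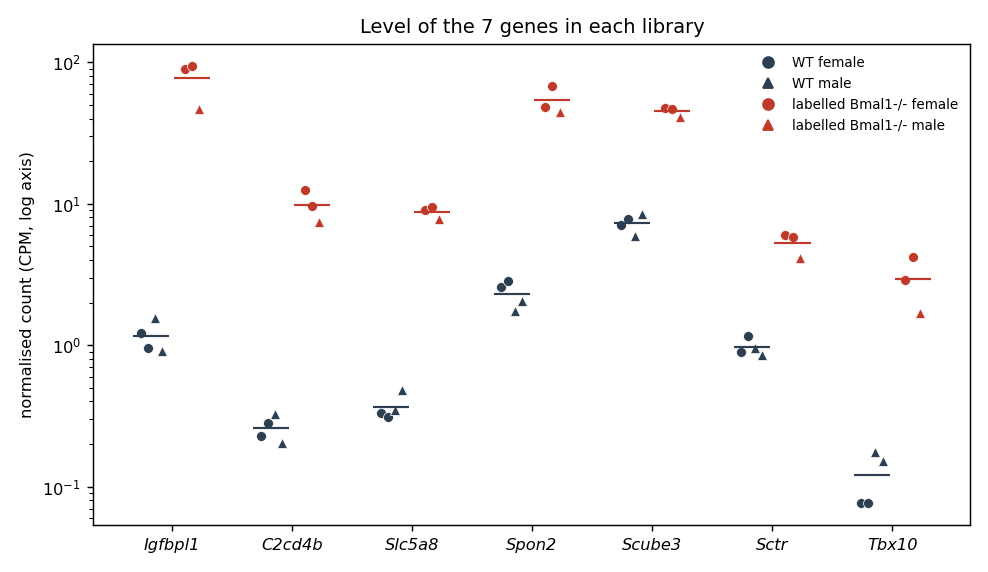
Normalised counts (CPM, log axis) of the 7 genes in each of the 3 libraries labelled Bmal1-/- (red) and 4 WT libraries (dark). Circles are females, triangles males and bars group means. For each gene the red points lie above all dark points, by 3.55 times for Sctr and up to 30.3 times for Igfbpl1.

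All 7 genes were among the 103 called higher at an adjusted p under 0.05 of 15743 tested (0.654%, with 144, or 0.915%, called lower), which is the contrast that chose them. By size of the log2 fold change they held places 1, 2, 4, 5, 6, 7 and 10 of the 103. The places between were held by Trim34b (place 3, 4.67, SE 0.37), which lies on chromosome 7, by the clock gene Npas2 (place 8, 2.62, SE 0.19) and by Fabp7 (place 9, 2.47, SE 0.14). Fabp7, a fatty acid binding protein of radial glia and astrocytes, is neither a clock gene nor on chromosome 7 and was all the same not among the genes chosen. Just below Sctr came Krt28, a hair follicle keratin, at 2.37 (SE 0.23) and Gucy2f, a retinal guanylate cyclase, at 2.29 (SE 0.24). The step from Sctr (2.45) to Krt28 was less than the SE of either, so the lower edge of the list is not a gap in the data.

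**Figure D2:**
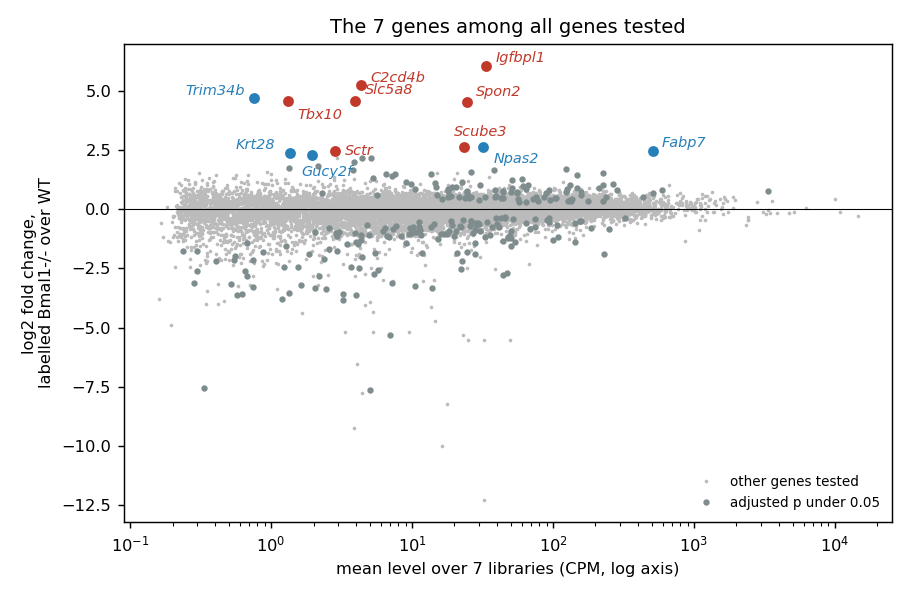
Log2 fold change (libraries labelled Bmal1-/- over WT) against the mean level over 7 libraries (CPM, log axis) for the 15743 genes tested. Red points are the 7 genes, blue points the named rises outside the list, and dark grey points other genes at an adjusted p under 0.05. Igfbpl1 at 6.05 and C2cd4b at 5.23 stand highest, and Sctr at 2.45 lies beside Fabp7, Krt28 and Gucy2f.

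Levels of different genes were compared per kilobase of annotated exon. In WT cord the order was Scube3 (0.825 CPM per kb), Spon2 (0.784), Sctr (0.479), Igfbpl1 (0.356), C2cd4b (0.196), Slc5a8 (0.0689) and Tbx10 (0.0674). All 7 were rare among the genes tested: Scube3 stood at percentile 15.9, Spon2 at 15.4, and Slc5a8 and Tbx10 at 0.915 and 0.890. Genes with so few counts in both genotypes were left out by the filter. Tbx10, with 3 to 7 counts per WT library, was kept through the libraries labelled Bmal1-/-. The lowest WT percentiles, and the climb from them, thus follow in part from the filter and the choice. In the libraries labelled Bmal1-/- the order was Igfbpl1 (23.7 CPM per kb), Spon2 (18.2), C2cd4b (7.42), Scube3 (5.09), Sctr (2.63), Slc5a8 (1.65) and Tbx10 (1.64). Igfbpl1 moved from percentile 8.70 to 86.2 and Spon2 to 81.8, whereas Slc5a8 and Tbx10 came to 25.0. Of neighbours in these orders, Scube3 and Spon2, Sctr and Igfbpl1, and Slc5a8 and Tbx10 overlapped between libraries in WT, and Igfbpl1 and Spon2, and Slc5a8 and Tbx10, in the libraries labelled Bmal1-/-.

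The 3 libraries labelled Bmal1-/- did not carry the 7 genes equally. Each of the 7 was lowest in replicate 3, the male, which held 58.1% of the group mean for Tbx10, 60.9% for Igfbpl1 and 91.2% for Scube3. Replicate 3 was also the lowest of the 3 libraries for 40.6% of all tested genes (6397) and for 47.6% of those called higher (49 of 103). The highest library was replicate 2 for Igfbpl1, Slc5a8, Spon2 and Tbx10 and replicate 1 for C2cd4b, Scube3 and Sctr. With a single male in that group, sex and mouse cannot be told apart.

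**Figure D3:**
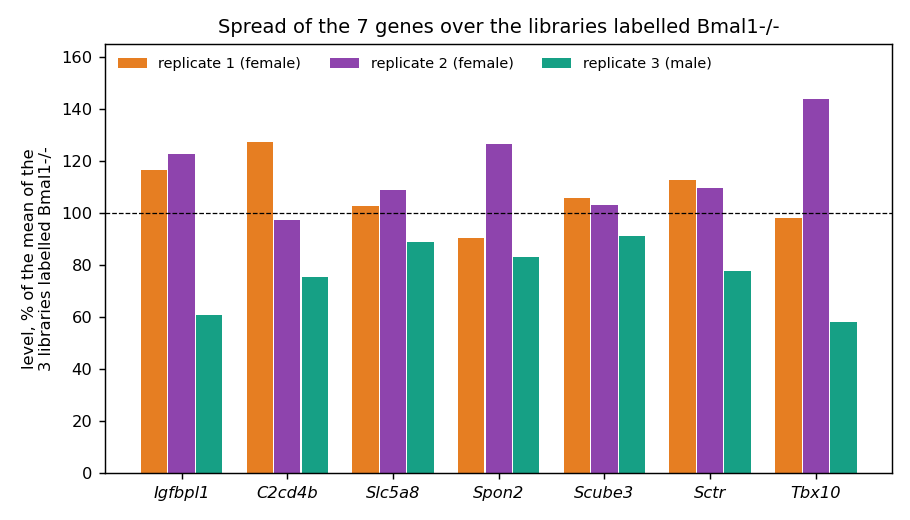
Level of each gene in the 3 libraries labelled Bmal1-/-, as a percentage of their mean (dashed line at 100%). Replicate 3 is the lowest bar for each of the 7 genes, from 58.1% for Tbx10 to 91.2% for Scube3.

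The difference of the genotype effect between males and females was tested over all 15743 genes. Replicate 3 is the single male labelled Bmal1-/-, assumed in this fit to vary like the other libraries, so the term carries its low values described above and is no separate evidence of a sex difference. The term was −2.11 for Tbx10 (unadjusted p = 0.0142, adjusted p = 0.40) and −1.15 for Igfbpl1 (unadjusted p = 0.0205, adjusted p = 0.40) in edgeR's quasi-likelihood test. For the other five the adjusted p from edgeR lay between 0.417 and 0.844, so no member passed. Over the table edgeR called 0 genes (1934 at an unadjusted p under 0.05) and DESeq2 called 136, none of them a member. Without WT replicate 4 the term for Igfbpl1 was −1.48 and passed (adjusted p = 0.00593, edgeR), in a fit that called 5709 genes with 1 male in each genotype.

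Likeness between genes was measured as the root mean square difference over the 7 libraries of log2 CPM, each gene counted from its WT mean. The closest pair of members was Scube3 and Sctr, at 0.26, followed by Spon2 and Slc5a8, at 0.34. Tbx10 was closest to Slc5a8 (0.41), C2cd4b to Spon2 (0.49, but to Slc5a8 at 0.55 with a smaller prior count of 0.5) and Igfbpl1 to C2cd4b (0.68). Among genes outside the list, Trim34b was the nearest to Igfbpl1 (1.35), C2cd4b (0.70), Slc5a8 (0.56), Spon2 (0.57) and Tbx10 (0.57), with Npas2 second for each of them (2.22, 1.59, 1.2, 1.25 and 1.1). Scube3 was nearest to Npas2 (0.17) and Fabp7 (0.29), and Sctr to Fabp7 (0.17) and Sox3 (0.25), a transcription factor of neural progenitors. The measure follows mainly the size of the rise, which chose the members.

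Genes beside a member on its chromosome had smaller rises, which the choice of the largest rises as members made likely in advance. Of the 42 tested genes that were the nearest 3 on each side of a member, 2 were higher and 0 lower by edgeR's test (14 at an unadjusted p under 0.05), beside 0.654% and 0.915% of all genes. At an unadjusted p under 0.05 there were 3286 of the 15743 genes (20.9%), the background for the unadjusted counts given here and for the lists of relatives. The log2 fold changes of the 42 neighbours ran from −1.07 to 1.11 with a median of 0.06. DESeq2 called 8 of them, and over the whole table it called 573 genes higher and 922 lower. Its count is therefore not to be set beside the edgeR shares. Acy3, an aminoacylase that ends 2.75 kb from Tbx10, reached 19.1, 24.6 and 19.2 CPM under the Bmal1-/- label and 8.39, 9.41, 10.5 and 10.6 CPM in WT. The groups did not overlap, and the log2 fold change was 1.11 (SE 0.13, adjusted p = 0.0107, edgeR), which passed in 7 of 7 fits that left out a library. Nudt8, on the other side of Tbx10 at 1.07 kb, had a log2 fold change of 0.25 (SE 0.25, adjusted p = 0.543, edgeR).

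Dbi, which encodes the acyl-CoA binding protein and is 49.7 kb from Sctr, was the other neighbour that passed. Its levels were 657.5, 668.2 and 612.9 CPM against 373.8, 391.2, 461.8 and 403.2 CPM, a log2 fold change of 0.67 (SE 0.09, adjusted p = 0.0203, edgeR), and passed in 1 of 7 fits that left out a library, the fit without WT replicate 3. The genes next to Sctr itself did not pass, with Tmem37 at −0.40 (SE 0.26) and Cfap221 at 0.53 (SE 0.45). Beside Igfbpl1, Aldh1b1 at a distance of 4.86 kb had a log2 fold change of 0.52 (SE 0.11, adjusted p = 0.0757, edgeR) and Stra6l one of 0.30 (SE 0.23). The nearest genes of Scube3 were Zfp523 at 0.14 (SE 0.11) and Tcp11 at −0.31 (SE 0.24), and those of Spon2 were Ctbp1 at 0.00376 (SE 0.06) and Slc5a1 at −0.23 (SE 0.55). Vps13c and Tln2 beside C2cd4b had values of 0.30 (SE 0.14) and 0.22 (SE 0.22), and Ano4 and Utp20 beside Slc5a8 of 0.38 (SE 0.19) and −0.16 (SE 0.06), none of which passed.

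**Figure D4:**
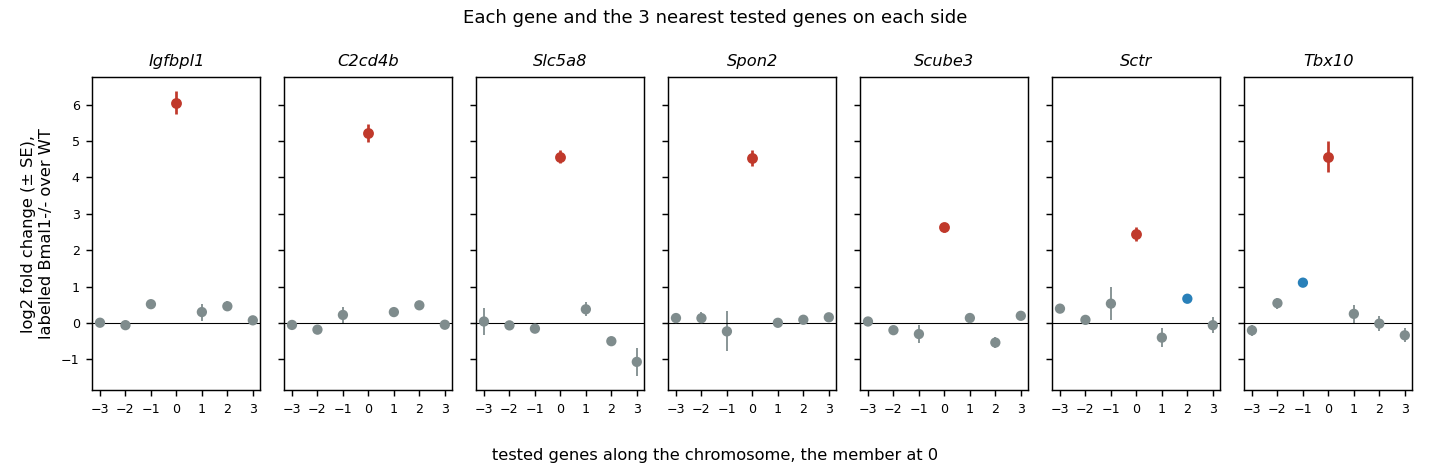
Log2 fold change (± SE) of each of the 7 genes (red, at 0) and of the 3 nearest tested genes on each side in order of position, with neighbours at an adjusted p under 0.05 in blue. Acy3 beside Tbx10 (1.11) and Dbi beside Sctr (0.67) are the blue points, and the other neighbours lie between −1.07 and 0.54.

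The relatives and partners of the 7 genes had smaller rises than the members, which the choice of the largest rises made likely in advance. Of 112 tested genes in 8 lists of family members, ligands and partners, 2 were higher and 3 lower by edgeR's test, with a median log2 fold change of −0.00894 beside −0.0057 over all genes, and 49.1% of them above 0 beside 48.9%. At an unadjusted p under 0.05 in edgeR there were 33 of the 112 (29.5%, beside 20.9% of all genes), and DESeq2 called 19 relatives. The insulin-like growth factor list (19 tested, median 0.09) held 1 higher and 1 lower gene. Htra1, a secreted protease with an IGF-binding domain, rose by 0.80 (374.6 ± 10.1 against 214.8 ± 22.8 CPM, SE 0.09, adjusted p = 0.0107, edgeR). Igfbp4, a binding protein that sequesters IGFs, fell by 1.11 (30 ± 8.64 against 64.5 ± 8.54 CPM, SE 0.20, adjusted p = 0.0473, edgeR). The ligand Igf1 was at −0.50 (SE 0.22, adjusted p = 0.255, edgeR) and its receptor Igf1r at 0.09 (SE 0.06, adjusted p = 0.406, edgeR). Igfbp5, the most abundant binding protein of the list, was at −0.66 (SE 0.81). Igfbp7 was at −0.76 (88.8 ± 17.6 against 151 ± 42.9 CPM, SE 0.23, adjusted p = 0.145, edgeR). Of the 19 genes 11 lay above 0.

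Among spondins and thrombospondin-repeat proteins (13 tested, median 0.13, and −0.04 without WT replicate 3) 1 rose and 0 fell, with 7 at an unadjusted p under 0.05. That gene was Spon1, the closest relative of Spon2 in name and a matrix protein of the floor plate and axons. Its mean was 287.6 ± 18.4 CPM under the Bmal1-/- label and 155.8 ± 18.8 CPM in WT, a log2 fold change of 0.88 (SE 0.11, adjusted p = 0.0128, edgeR). Thbs1, thrombospondin 1, was at −0.49 (SE 0.28). Of the 8 integrins and innate receptor genes linked to mindin none passed (2 at an unadjusted p under 0.05, none above 0, median −0.32 and −0.16 without WT replicate 3), and the most abundant, Itgb1 and Itgb2, were at −0.22 (SE 0.13) and −0.29 (SE 0.14).

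In the SCUBE and hedgehog list 0 of 20 genes passed in edgeR's test (4 at an unadjusted p under 0.05, median −0.05). SCUBE proteins are known to help release lipid-bound hedgehog from cells. The paralogs Scube1 and Scube2 were at 0.39 (SE 0.11, adjusted p = 0.139, edgeR) and 0.53 (SE 0.36, adjusted p = 0.388, edgeR), and Shh at 0.08 (SE 0.20). The hedgehog target Gli1 ranged from 0.762 to 4.20 CPM in the libraries labelled Bmal1-/- and from 2.57 to 6.14 CPM in WT, a log2 fold change of −1.08 with an SE of 0.58. Disp2 (0.68, SE 0.28) and Ptch1 (−0.04, SE 0.12) were the most abundant genes of the list.

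For Slc5a8, 1 of 20 tested SLC5, SLC16 and ancillary genes passed (3 at an unadjusted p under 0.05, median 0.02). Slc16a12, a creatine transporter of the monocarboxylate family, fell by 1.08 (2.65 ± 0.154 against 5.61 ± 0.984 CPM, SE 0.17, adjusted p = 0.0317, edgeR). The proton-coupled lactate transporter Slc16a1 was at 0.32 (SE 0.08, adjusted p = 0.117, edgeR) and its chaperone Bsg at 0.13 (SE 0.08). The closest relative by function, Slc5a12, had 0 counts in every library.

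For Sctr, its ligand gene Sct had 3 to 6 counts in WT and 1 to 3 in the others, and was too rare to be tested. In the list of class B receptors, their ligands and accessory proteins 0 of 22 rose and 1 fell (7 at an unadjusted p under 0.05, median 0.16). The falling gene was Calcrl, the receptor for CGRP and adrenomedullin, at −0.76 (16 ± 1.57 against 27 ± 2.58 CPM, SE 0.10, adjusted p = 0.0193, edgeR). Adcyap1r1, the PACAP receptor and the most abundant of the list, was at −0.03 (SE 0.20), Ramp1 at 0.00295 (SE 0.13) and Vipr1 at −0.09 (SE 0.21).

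None of the 8 tested T-box genes passed (3 at an unadjusted p under 0.05, median −0.48, and −0.32 without WT replicate 3). Tbx1, the nearest paralog of Tbx10, was at 5.65 ± 0.856 CPM in the libraries labelled Bmal1-/- and at 6.74 ± 1.2 CPM in WT (log2 fold change −0.26, SE 0.17, adjusted p = 0.385, edgeR). Mga, the most abundant of the list, was at 0.14 (SE 0.08). For C2cd4b, its paralog C2cd4a had 1 to 3 counts in WT and 0 to 4 in the others and was not tested, and C2cd4c and C2cd4d were at 0.28 (SE 0.19) and 0.42 (SE 0.22) and did not pass.

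Of the relatives that passed, Htra1 and Spon1 passed in 5 of 7 fits that left out a library, Igfbp4 and Slc16a12 in 2 and Calcrl in 1. Calcrl passed only without WT replicate 3, Igfbp4 without that library or replicate 2 labelled Bmal1-/-, and Slc16a12 without that library or WT replicate 4. The number of relatives that passed was 0 without replicate 1 labelled Bmal1-/- and 8 without WT replicate 3. The direction was the same in each of these fits. Htra1 lost its call without replicate 1 or 3 labelled Bmal1-/-, and Spon1 without replicate 1 labelled Bmal1-/- or WT replicate 1.

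**Figure D5:**
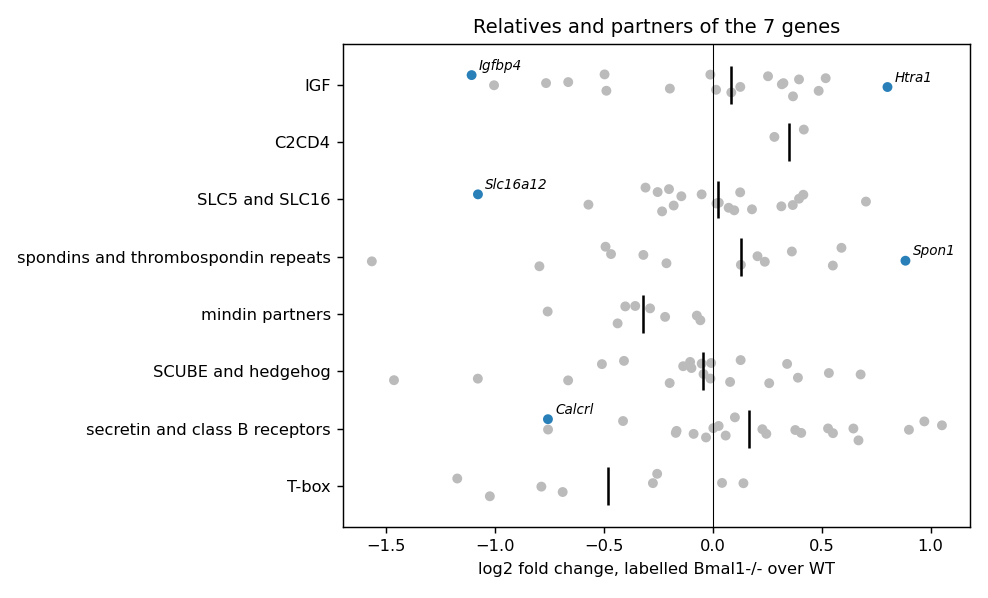
Log2 fold change (libraries labelled Bmal1-/- over WT) of the 112 tested genes in the 8 lists of relatives and partners, with list medians as black bars and genes at an adjusted p under 0.05 in blue. The values lie below those of the 7 genes, which were chosen as the largest rises. Htra1 (0.80), Spon1 (0.88), Igfbp4 (−1.11), Slc16a12 (−1.08) and Calcrl (−0.76) are the blue points.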

How the data were processed

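The labels describe poly-A libraries made with a stranded kit. Per the study's methods the reads were aligned to GRCm38.p6 with TopHat2 and counted per gene with HTSeq 0.10.0, and the deposited values are the raw counts the authors obtained, with no normalisation. The strand setting of the counting is not given in the sources used here. Of 21965 genes, 21939 were matched by identifier to a symbol and position, and 3039 had 0 counts throughout.

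Genes with enough counts by edgeR's filterByExpr (15743) were fitted with edgeR 4.0.16 (TMM factors, quasi-likelihood test, genotype only, all 7 libraries), and p-values were adjusted by Benjamini-Hochberg over all of them, with a threshold of 0.05. DESeq2 1.42.0 and other scalings, filters and covariates were alternatives. Fold changes are log2 values from edgeR, CPM values use TMM-scaled library sizes, and log2 CPM used a prior count of 2. No libraries were duplicates: the chi-square per degree of freedom between replicates was 14.2 to 156. The labels name the mice as separate animals by number and sex.

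The 7 genes, the lists of relatives and cell type markers, and the comparisons were chosen with earlier results of these data known. Named were the 7 genes, relatives that passed, the 2 most abundant of each list of relatives, the nearest tested gene on each side and neighbours that passed. Also named were the 2 genes most like each member, the larger rises outside the list and the 2 rises next below it. Among clock genes and cell type markers only some were named, not by this rule. Igf1, Igf1r, Igfbp7, Slc5a12, Scube1, Scube2, Shh, Gli1, Sct, Vipr1 and C2cd4a were added for their role after their values were seen. Igf2, Slc16a7 and Tbx15 were looked up for their role too and did not pass.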

Additional observations from a re-analysis of the deposited data

Results flagged for a closer look

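In 41 items tested for a sample far from the others of its group, WT replicate 3 was set apart in 2, and chance sets apart about 1 in 20 groups. The summed red cell markers were 412.9 CPM in that library against 133.4 to 149.3 CPM in the other WT libraries. Tbx1, the paralog of Tbx10, was at 8.537 CPM there. None of the 7 genes had such a library among WT, and their groups of 3 labelled Bmal1-/- were not tested.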

How the results depend on the processing

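The log2 fold changes of the 7 genes kept their direction in 98 of 98 alternative values over 14 alternatives and moved by less than the spread between replicates, from 5.88 to 6.30 for Igfbpl1, 5.02 to 5.39 for C2cd4b, 4.49 to 4.72 for Slc5a8, 4.33 to 4.65 for Spon2, 2.54 to 2.71 for Scube3, 2.36 to 2.60 for Sctr and 4.21 to 4.84 for Tbx10. DESeq2 called 573 genes higher and 922 lower (1495 together), 19 relatives and 8 neighbours, where edgeR called 5 relatives and 2 neighbours. The share over all genes tested by DESeq2 was not computed. Leaving out 1 library gave 30 to 291 genes higher, 27 to 439 lower, 0 to 8 relatives, 1 to 6 neighbours and 0 to 1 members with a difference between the sexes, the highest counts of genes, relatives and neighbours being those without WT replicate 3 and the lowest of genes and relatives those without replicate 1 labelled Bmal1-/-. With 1 neighbour a side 1 passed. With the replicate block (6 libraries) 0 genes were higher, 0 lower, and 0 relatives, 0 neighbours and 0 members were called, with 1582 genes at an unadjusted p under 0.05. The fit had fewer libraries and residual degrees of freedom. The members were chosen on this contrast, so their calls and kept directions are a description and no test of them. The replicate numbers did not pair the samples (correlation of deviations −0.174, 0.183 and −0.295). With a prior count of 0.5 the 14 nearest genes outside the list were the same, and the nearest member of C2cd4b became Slc5a8 (0.55) in place of Spon2. The cause of these shifts was not tested. With 3 to 19 counts per WT library, the WT levels of Tbx10, C2cd4b and Slc5a8 are the least precise. The sex term could not be estimated without replicate 3 labelled Bmal1-/-.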
